A study of Mus musculus with 36 samples.

Results

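The genes described are 10 genes of MHC class II antigen presentation and of dendritic cells: H2-Aa, H2-Ab1, H2-Eb1, Cd74, Ciita, Xcr1, Clec9a, Cd209a, Itgae and Flt3. They were picked by name and not by a rule on a measured value, but with earlier results of these data known. Each was found once among the 46078 genes of the deposited count table. All 10 were among the 16903 genes that passed the filter on low counts and were tested.

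RNA was sequenced from lung pieces, freed of the large airways, of female C57BL/6 mice, a wild-type inbred strain. Each mouse received 1 intranasal instillation of 50 μg graphene oxide, an oxidised sheet of carbon, in 5% dextrose, or the 5% dextrose alone. US, S and L stand for ultrasmall, small and large sheets as the study names them, and D for mice given 0 μg. The design asks how the response of the lung depends on sheet size. Lungs were taken at day 1 (age 9 weeks), day 7 (10 weeks) or day 28 (13 weeks). No transgene or deletion was present in any group, and all groups shared the dextrose carrier and the anaesthesia. There were 12 groups of 3 libraries, 36 in all, from groups of 4 to 5 animals. Which animal gave which library is not labelled, and the p-values given here reflect the spread among libraries, which may in part be technical. Depth was 80566751 counts in S day 7 replicate 2 and between 16154696 and 23808264 counts in the other 35 libraries. The 10 markers checked of alveolar type 2 cells, an epithelial cell of the alveoli, summed to between 26770.0 and 44220.0 CPM in the 36 libraries. CPM are counts scaled to library size with edgeR's TMM factors. A list of 14 circadian clock genes differed between groups, with sums of 1085 to 1497 CPM in S, 1076 to 1515 CPM in L, 761 to 1180 CPM in US and 735 to 865 CPM in D at day 1. At day 7 they were 1143 to 1673 CPM in US, 628 to 755 CPM in S and 1215 to 1425 CPM in L, against 552 to 676 CPM in D. At day 28 the clock sums were 490 to 599 CPM in US, 557 to 683 CPM in S and 902 to 987 CPM in L, against 535 to 551 CPM in D. The sum joins genes that moved in opposite directions, so it can hide shifts. In S at day 28, Nr1d1, Nr1d2 and Bhlhe41 were called higher than D (log2 2.88, 1.62 and 0.99) and Cry1 lower (-1.32). The 8 fat genes checked summed to 14.27 to 21.82 CPM in US, 13.29 to 28.60 CPM in S and 13.10 to 27.47 CPM in L, against 28.35 to 52.28 CPM in D at day 7, where 1 of them, Adig, was called in US. The part of these differences in the results below was not tested.

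MHC class II molecules are pairs of an alpha and a beta chain that carry peptides to the cell surface, where CD4 T cells read them. The invariant chain Cd74 guides the pair through the cell and blocks its groove until a peptide is loaded, and the transactivator Ciita switches the whole gene group on. In the lung, dendritic cells, B cells, macrophages and alveolar type 2 cells all carry class II. Conventional type 1 dendritic cells, which take up dead cells and prime CD8 T cells, are marked in mice by the chemokine receptor Xcr1, the dead-cell receptor Clec9a and the integrin chain Itgae. Flt3 is the growth factor receptor that dendritic cells depend on, and Cd209a is a C-type lectin of monocyte-derived and type 2 dendritic cells in mice. In these bulk samples, fewer cells of a type and less RNA per cell cannot be told apart.

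Compared per length, on the deposited TPM scale (a length-corrected abundance whose sum is fixed per library), the class II chains stood far above the other genes. Cd74 was highest, with a median of 2117 TPM over the 36 libraries and a range of 996 to 3317 TPM. H2-Aa followed at a median of 997 TPM, H2-Ab1 at 657 TPM and H2-Eb1 at 495 TPM, and this order of Cd74, H2-Aa, H2-Ab1 and H2-Eb1 held in 36 of 36 libraries. The dendritic cell genes and Ciita were far lower. Cd209a had a median of 15.9 TPM, Ciita 8.66 TPM, Itgae 4.58 TPM, Flt3 3.41 TPM, Clec9a 3.32 TPM and Xcr1 2.00 TPM. Flt3 and Clec9a did not differ beyond their spread, since Flt3 was the higher of the pair in 17 of 36 libraries. Over all 36 libraries the coefficient of variation ran from 22.7% for Flt3 to 42.4% for Ciita. Counts behind a single value ran from 31 for Xcr1 to 119828 for Cd74, so the levels of the dendritic cell genes rest on far fewer reads.

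In GRCm38 the class II chain genes lie on chromosome 17, H2-Ab1 at positions 34263209 to 34269418, H2-Aa at 34282744 to 34287827 and H2-Eb1 at 34305877 to 34316199. H2-Aa encodes the alpha and H2-Ab1 the beta chain of I-A, and H2-Eb1 the beta chain of I-E, whose alpha chain C57BL/6 mice do not make. RefSeq promoters, 250 bases before to 50 after the start of each gene, matched 6 of the 10 genes: H2-Aa, H2-Eb1, Xcr1, Clec9a, Cd209a and Flt3. Since the class II genes varied together across libraries, as described below, the promoters of H2-Aa and H2-Eb1 are shown on the strand of the gene, build GRCm38.p6. Capitals mark GCAAC, a part of the X box bound by RFX, and GATTGG, a part of the Y box bound by NF-Y, 2 known elements of class II promoters.
H2-Aa: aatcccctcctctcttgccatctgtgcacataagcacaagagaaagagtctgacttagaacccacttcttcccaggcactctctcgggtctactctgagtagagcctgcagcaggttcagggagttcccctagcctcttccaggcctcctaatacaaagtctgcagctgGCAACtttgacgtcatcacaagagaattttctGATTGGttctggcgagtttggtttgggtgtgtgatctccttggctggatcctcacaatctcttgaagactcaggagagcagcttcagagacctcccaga
H2-Eb1: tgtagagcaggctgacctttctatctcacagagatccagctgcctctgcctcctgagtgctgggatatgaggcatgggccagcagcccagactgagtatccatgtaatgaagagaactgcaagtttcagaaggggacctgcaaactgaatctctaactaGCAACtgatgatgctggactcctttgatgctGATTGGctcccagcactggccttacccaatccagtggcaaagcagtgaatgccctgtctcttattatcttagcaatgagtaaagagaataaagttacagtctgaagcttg
The H2-Aa window is chr17:34287774-34288073 on the minus strand, and the H2-Eb1 window is chr17:34305617-34305916 on the plus strand. GCAAC began 81 bases before the start in H2-Aa and 91 in H2-Eb1, with 27 and 26 bases between the elements. The same pair stood in 2 other class II promoters of the 7 examined, those of H2-Eb2 and H2-Oa, of which the window of the pair alone is shown.
H2-Eb2: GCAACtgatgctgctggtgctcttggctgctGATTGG
H2-Oa: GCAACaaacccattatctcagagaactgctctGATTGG
GCAAC then GATTGG on the strand of the gene, with 26 or 27 bases between, occurred in 14 of 32851 RefSeq promoters of the same length (0.0426%). Taken singly and on either strand, GCAAC occurred in 35.2% and GATTGG in 16.1% of them, and the 2 motifs do not overlap. The motifs were chosen after these promoters had been read, and a match describes letters, not binding. The spacing and strand counted are also those seen in H2-Aa and H2-Eb1, so the low share is not an independent measure of rarity. The Xcr1, Clec9a, Cd209a and Flt3 windows did not hold the pair. Nor did the H2-Ob, H2-DMa, H2-DMb1 and H2-DMb2 windows. Yet H2-DMa and H2-DMb1 were the genes outside the 10 that varied most like the chains (r = 0.979 and 0.958). The part of the pair in how these genes vary was not tested.

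At day 1 the class II chains had lower mean levels in all 3 graphene oxide groups than in D, but the libraries of a group disagreed and no gene passed the test. H2-Aa had 235.8, 539.7 and 397.4 CPM in US, 574.9, 343.8 and 305.5 CPM in S, and 391.3, 302.8 and 654.9 CPM in L, against 556.2, 548.6 and 551.6 CPM in D. The D libraries were nearly identical, while US replicates 1 and 3, S replicates 2 and 3 and L replicates 1 and 2 lay well under them. US replicate 2, S replicate 1 and L replicate 3 lay near or above D. The other chains showed the same 6 low libraries. H2-Ab1 had 135.7, 384.6 and 250.1 CPM in US, 337.2, 175.8 and 151.4 CPM in S, and 224.3, 196.1 and 491.1 CPM in L, against 330.3, 343.1 and 349.0 CPM in D. H2-Eb1 had 114.5, 267.8 and 184.5 CPM in US, 273.1, 151.1 and 135.6 CPM in S, and 180.5, 154.3 and 395.0 CPM in L, against 264.5, 262.8 and 270.4 CPM in D. Cd74, the invariant chain (chromosome 18, 60803848 to 60812646), had 659.5, 1386 and 961.7 CPM in US, 1313, 812.5 and 688.1 CPM in S, and 868.3, 739.2 and 1676 CPM in L, against 1400.0, 1218 and 1411 CPM in D.

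**Figure D1:**
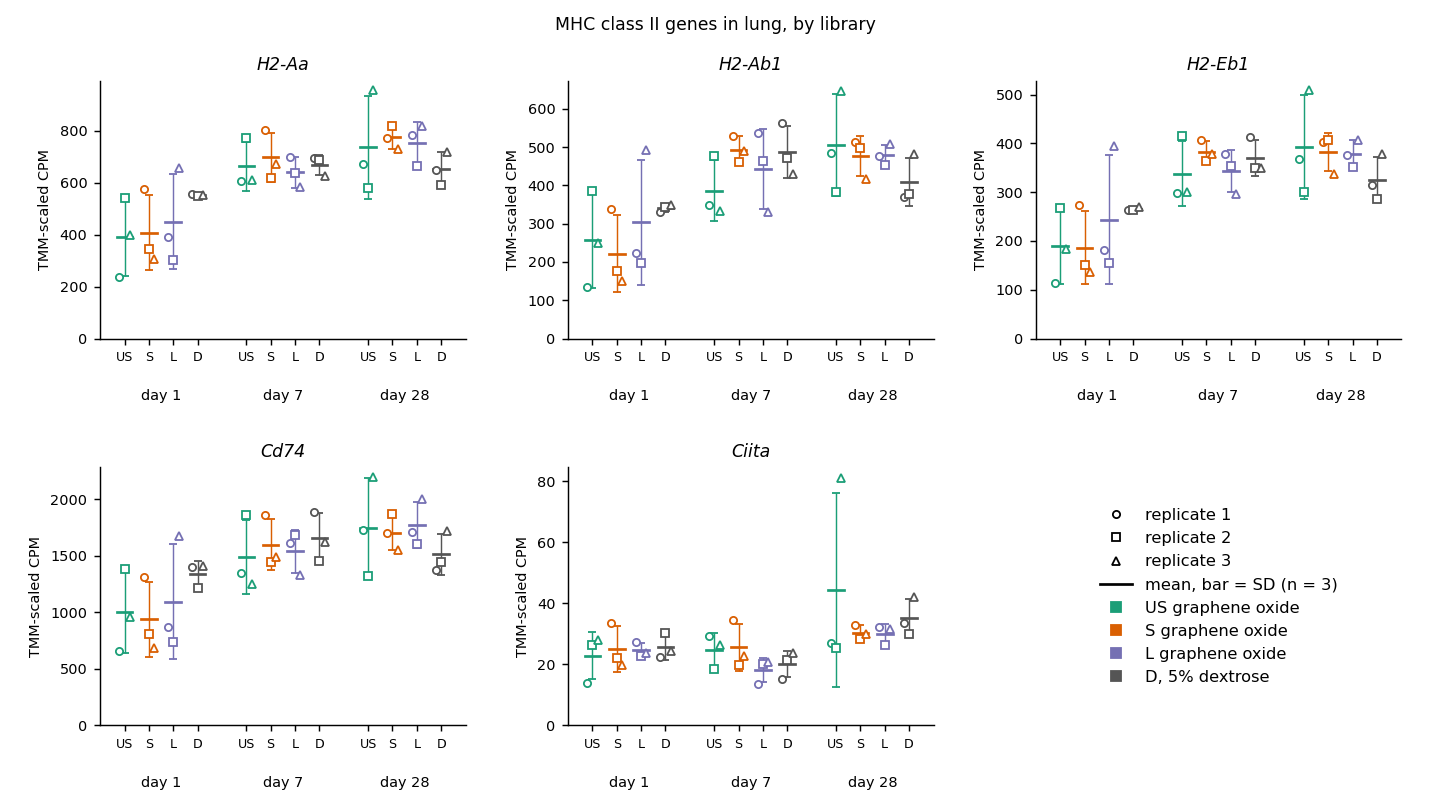
TMM-scaled CPM of the 4 class II chains and Ciita (vertical axes) in US, S, L and D at days 1, 7 and 28 (horizontal axis). Open symbols are libraries, lines are means and bars SD (n = 3). At day 1 the D libraries of H2-Aa sit between 548.6 and 556.2 CPM and the exposed libraries spread from 235.8 to 654.9 CPM. Ciita stands at 81.17 CPM in US day 28 replicate 3.

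In log2 terms the day 1 differences from D were -0.50 ± 0.24 (SE) for H2-Aa, -0.41 ± 0.30 for H2-Ab1, -0.49 ± 0.28 for H2-Eb1 and -0.42 ± 0.26 for Cd74 in US. In S they were -0.44 ± 0.24, -0.62 ± 0.31, -0.51 ± 0.28 and -0.52 ± 0.26 in the same order of genes. In L the largest was -0.30 ± 0.24 for H2-Aa. By edgeR's quasi-likelihood test with Benjamini-Hochberg adjustment the adjusted p of the 4 chains ran from 0.239 (H2-Ab1 in S) to 0.988 (H2-Eb1 in L). In none of the 3 day 1 comparisons was any of the 10 genes called, against 0.0887% of all genes tested in US, 0.0473% in S and 0.0237% in L. Their counts at an unadjusted p under 0.05 were 3 in US, 0 in S and 3 in L. Of the 16903 genes tested, 2724 had such a p in US, 3555 in S and 835 in L. DESeq2 called 1 in US and 0 in S and L, and limma on TPM called 0 in each. The median of the 10 log2 differences was -0.45 in US, -0.32 in S and -0.30 in L, beside 0.01, -0.02 and 0.01 over all genes tested.

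At day 7 the libraries of exposed lungs overlapped those of D in each chain. H2-Aa had 604.9, 772.7 and 611.9 CPM in US, 803.0, 618.6 and 670.2 CPM in S, and 700.4, 638.4 and 581.9 CPM in L, against 696.2, 686.3 and 625.7 CPM in D. The groups overlapped throughout, though single libraries lay outside the range of D. H2-Ab1 had 348.5, 476.8 and 333.6 CPM in US, 529.5, 459.6 and 489.6 CPM in S, and 537.1, 462.3 and 329.5 CPM in L. In D it had 562.9, 470.6 and 429.4 CPM. Log2 differences of the 4 chains from D ran from -0.34 (H2-Ab1 in US, 95% interval -0.96 to 0.28) to 0.06 (H2-Aa in S, -0.43 to 0.55). No gene of the 10 was called, with 2.09% of all genes called in US, 0.450% in S and 0.154% in L. The counts at an unadjusted p under 0.05 were 0 in US, 0 in S and 1 in L, and DESeq2 and limma also called 0. Of the 16903 genes tested, 4352 had such a p in US, 1577 in S and 824 in L.

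At day 28 the means of the chains were slightly above D in each exposed group. H2-Aa had 673.6, 577.6 and 956.9 CPM in US, 773.1, 819.8 and 730.3 CPM in S, and 782.5, 662.9 and 817.4 CPM in L, against 648.8, 590.8 and 719.0 CPM in D. The 3 S libraries were all above the 3 D libraries, as they were for 11.1% of all genes, while US and L overlapped D. The 12 log2 differences of the 4 chains were all positive, from 0.17 (Cd74 in S, 95% interval -0.35 to 0.70) to 0.30 (H2-Ab1 in US, -0.32 to 0.92). All 3 contrasts share the same D libraries. None of the 10 genes was called, with 0.0237% of all genes called in US, 0.237% in S and 2.15% in L. Their counts at an unadjusted p under 0.05 were 0, 0 and 1 in US, S and L, and DESeq2 and limma called 0. Of the 16903 genes tested, 1018 had such a p in US, 1668 in S and 2829 in L.

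Ciita (chromosome 16, 10488178 to 10527564), the transactivator of the class II genes, did not follow the low libraries of day 1 as closely. It had 14.07, 26.46 and 28.09 CPM in US, 33.73, 22.02 and 19.74 CPM in S, and 27.38, 22.78 and 23.67 CPM in L, against 22.35, 30.38 and 24.30 CPM in D. US replicate 1 stood lowest, S replicates 2 and 3 were just under the lowest D library, and all 3 groups overlapped D. At day 28 it had 26.92, 25.34 and 81.17 CPM in US, against 33.67, 29.86 and 42.11 CPM in D. US replicate 3 was above every other library and the other two were under all 3 of D. The log2 difference of US from D at day 28 was 0.34 ± 0.31 with an adjusted p of 0.952 in edgeR, and -0.43 without that library. Reads of Ciita may in part belong to Dexi, which overlaps it on the opposite strand and had a median count of 218, since the strand setting of the counting is not given in the sources used here.

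US day 28 replicate 3 also had the highest sum of the 12 interferon gamma response genes, 2396 CPM, against 732.9 to 954.2 CPM in the other 35 libraries. Named after their values were seen, Ifng, the cytokine, had 5.17 CPM there against 0.48 CPM in each of US day 28 replicates 1 and 2. The GTPase gene Gbp2 had 721.1 CPM there, against 146.4 CPM in each of the other two. Of the 12 genes none was called in US against D at day 28 by edgeR, and their median log2 difference was 0.73 beside 0.01 over all genes tested. In S and L at day 28 the medians were -0.05 and -0.04.

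Clec9a, Flt3 and Xcr1 had their lowest mean CPM of the 12 groups in US at day 1, and Itgae had its lowest in L at day 1. Clec9a (chromosome 6, 129408862 to 129424764) had 1.88, 4.55 and 3.67 CPM in US, 6.87, 4.59 and 5.47 CPM in S, and 4.76, 4.43 and 5.47 CPM in L, against 5.78, 9.69 and 5.37 CPM in D. All 3 US libraries were under all 3 D libraries, whereas S and L overlapped D. The log2 difference of US from D was -1.05 ± 0.26 with an adjusted p of 0.0662 in edgeR, so it did not pass. It passed at -1.33 without US day 1 replicate 2 (adjusted p = 0.0108), at -1.05 in DESeq2 (0.0139) and at -1.04 without the filter on low counts (0.0396). Over all its alternatives that adjusted p was under 0.05 only in these 3. Clec1b, a platelet gene that overlaps Clec9a on the same strand, had a median count of 97, so reads could be shared.

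Flt3 (chromosome 5, 147330741 to 147400489) had 3.75, 5.72 and 4.49 CPM in US, 8.49, 4.76 and 5.09 CPM in S, and 4.66, 5.10 and 5.73 CPM in L, against 7.14, 6.98 and 7.17 CPM in D at day 1. US and L lay entirely under D. The log2 difference was -0.61 ± 0.22 in US (adjusted p = 0.168, edgeR) and -0.46 ± 0.21 in L (0.978). Itgae (chromosome 11, 73090583 to 73147446), the CD103 chain that also marks T cells of the epithelium, had 5.14, 8.79 and 9.86 CPM in US, 11.61, 8.01 and 7.33 CPM in S, and 7.54, 5.98 and 9.26 CPM in L, against 9.56, 12.89 and 10.32 CPM in D. The L libraries were all under D, while US and S overlapped D, with a log2 difference in L of -0.53 ± 0.23 (adjusted p = 0.958, edgeR). Gsg2 overlaps Itgae on the opposite strand with a median count of 55.

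Xcr1 (chromosome 9, 123852315 to 123862029) had 1.53, 4.92 and 4.08 CPM in US, 7.03, 3.53 and 4.27 CPM in S, and 4.23, 2.89 and 4.37 CPM in L, against 4.22, 4.79 and 3.30 CPM in D at day 1. The groups overlapped, and 1 library, US replicate 1, stood lowest. The value of US replicate 1 rests on 31 counts. At day 1, 3 of the 10 genes in US (H2-Aa, Clec9a and Flt3) and 3 in L (Cd209a, Itgae and Flt3) had all exposed libraries under all D libraries. Among all genes tested, 7.13% in US and 4.44% in L did. In S none of the 10 did, beside 15.2% of all genes.

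**Figure D2:**
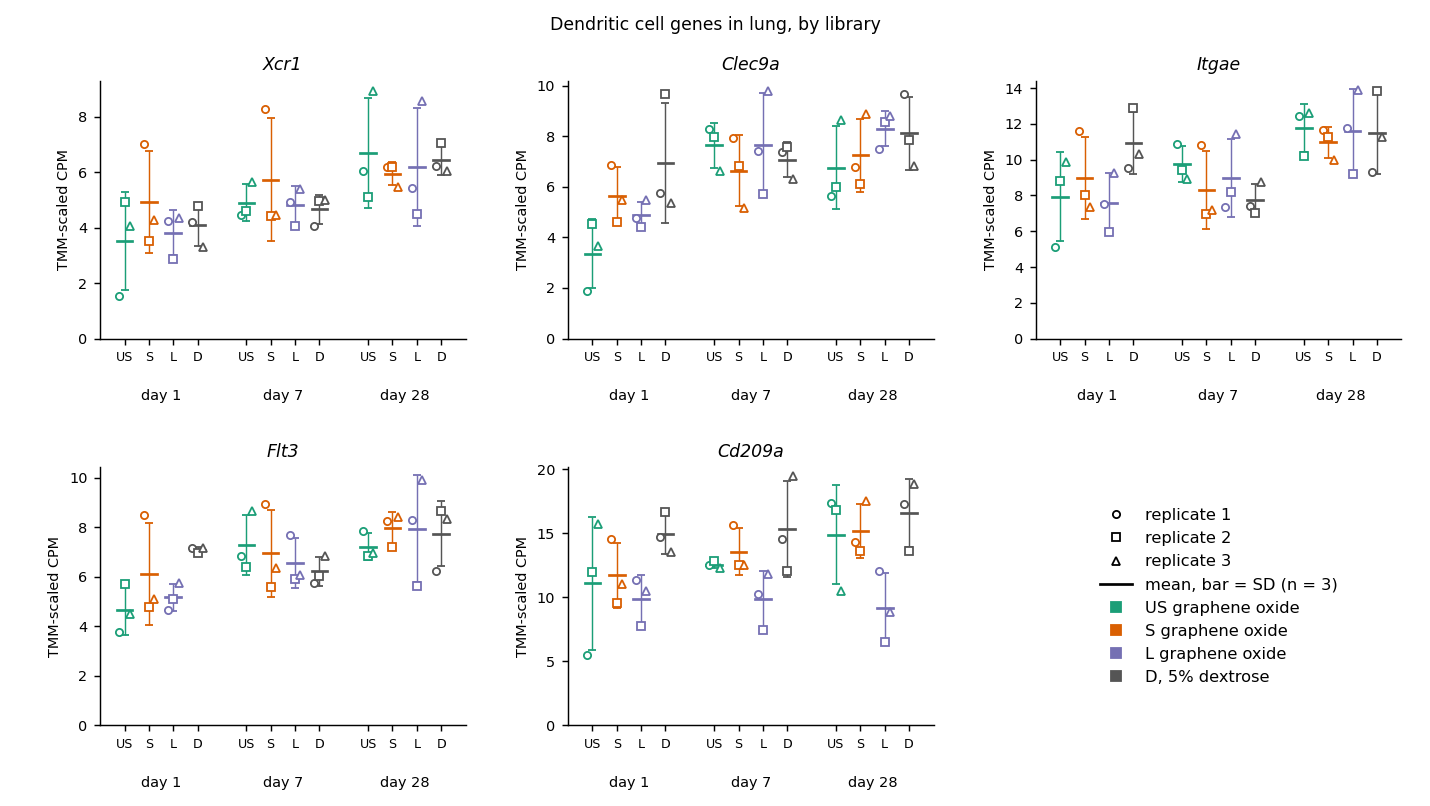
TMM-scaled CPM of the dendritic cell genes Xcr1, Clec9a, Itgae, Flt3 and Cd209a (vertical axes) in US, S, L and D at days 1, 7 and 28 (horizontal axis), drawn as for the class II genes. Clec9a in US day 1 runs from 1.88 to 4.55 CPM, under the D libraries at 5.37 to 9.69 CPM. Cd209a in L lies under D on each of the 3 days.

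At days 7 and 28 the type 1 dendritic cell genes of exposed lungs were close to D. Clec9a had 8.30, 7.98 and 6.64 CPM in US day 7, against 7.38, 7.56 and 6.30 CPM in D day 7. At day 28 it had 5.62, 5.99 and 8.64 CPM in US, 6.78, 6.10 and 8.88 CPM in S, and 7.51, 8.58 and 8.82 CPM in L, against 9.67, 7.86 and 6.83 CPM in D. All these groups overlapped. For Xcr1, Clec9a, Itgae and Flt3 together the log2 differences from D ran from -0.26 (Clec9a in US, day 28) to 0.33 (Itgae in US, day 7) over both days. Itgae in US day 7 had 10.90, 9.42 and 8.93 CPM, all above the 7.43, 7.02 and 8.75 CPM of D. Its adjusted p was 0.355 in edgeR, and 7.90% of all genes had all US libraries above D at day 7.

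Cd209a (chromosome 8, 3743395 to 3748984) was lower in L than in D on every day. At day 1 it had 11.34, 7.78 and 10.52 CPM in L, against 14.72, 16.67 and 13.52 CPM in D. At day 7 it had 10.25, 7.45 and 11.83 CPM in L, against 14.58, 12.03 and 19.44 CPM in D. At day 28 it had 12.07, 6.52 and 8.82 CPM in L, against 17.27, 13.62 and 18.85 CPM in D. On each day the 3 L libraries lay under the 3 D libraries, which 4.44%, 2.98% and 16.4% of all genes did at days 1, 7 and 28. The log2 differences were -0.60 ± 0.27, -0.64 ± 0.27 and -0.86 ± 0.27, with edgeR adjusted p of 0.968, 0.919 and 0.0915, so none passed. At day 28 it passed at -0.84 when only the L and D libraries were fitted (adjusted p = 0.0486). US and S overlapped D on all 3 days, with log2 differences from -0.44 to -0.13. The Cd209 family holds several related genes, among which reads may be split. The 6 other Cd209 genes checked summed to between 2.57 and 9.15 CPM in the 36 libraries. At day 28 their sum was 2.96 to 4.18 CPM in L, against 5.00 to 7.00 CPM in D, so it too lay wholly under D, while at days 1 and 7 L overlapped D. Mgl2, a lectin gene of the type 2 dendritic cell list named after its values were seen, had 22.43, 26.01 and 22.55 CPM in L, against 30.12, 35.04 and 41.91 CPM in D at day 28. Its log2 difference was -0.59 ± 0.23 (adjusted p = 0.176, edgeR), so it did not pass. Other genes of that list did not all go the same way in L at day 28. Itgax and Sirpa were called higher than D (log2 0.99 and 0.48) and Klf4 lower (-0.97). The list summed to 480.9 to 678.4 CPM in L, against 530.2 to 565.3 CPM in D, so the groups overlapped.

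**Figure D3:**
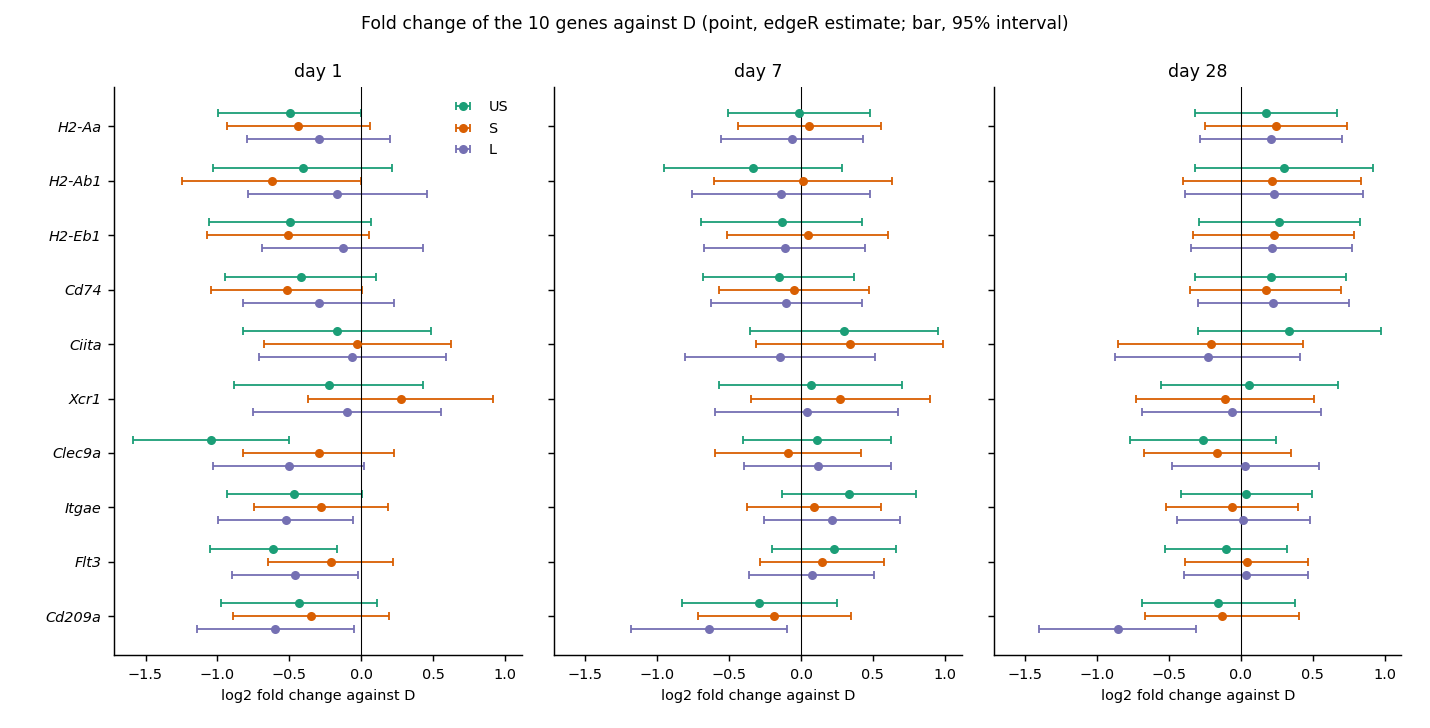
Log2 fold change against D of the same day (horizontal axis) for the 10 genes (vertical axis) in US, S and L at days 1, 7 and 28. Points are edgeR estimates and bars 95% intervals. At day 1 most points lie left of 0, with Clec9a in US farthest at -1.05, and at day 28 Cd209a in L lies at -0.86.

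With the 3 graphene oxide groups averaged, none of the 10 genes was called at day 1, 7 or 28, beside 0.0414%, 0.337% and 0.893% of all genes. At an unadjusted p under 0.05 there were 5, 0 and 0, beside 2677, 2244 and 2173 of the 16903 genes tested. DESeq2 and limma called 0. All 10 averaged differences were negative at day 1, with a median of -0.41 beside -0.005 over all genes tested. The sizes were also set against each other within each day, 9 pairs in all, and none of the 10 genes was called in any pair. Of all genes tested, 0.0177%, 0.142% and 0.00% were called in S against US at days 1, 7 and 28. In L against US the shares were 0.00%, 0.00592% and 0.515%, and in L against S 0.00%, 0.154% and 0.0651%. Counts at an unadjusted p under 0.05 were 1 in S against US at day 1. They were 1 in L against US and 1 in L against S at day 28, and 0 in the other 6 pairs. Of the 16903 genes, 2315, 2223 and 920 had such a p in S against US at days 1, 7 and 28. In L against US the numbers were 1060, 2534 and 1911, and in L against S 1759, 1131 and 635. DESeq2 and limma called 0 in all 9 pairs. Whether the effect of a size differed at day 7 or 28 from that at day 1 was tested in 6 contrasts, with 0 of the 10 genes called in each. Of all genes, 0.136% and 0.0473% were called for US at days 7 and 28, 0.00% and 0.195% for S, and 0.00% and 0.243% for L. There, an unadjusted p under 0.05 was found for 3 of the 10 genes in US at day 7. It was found for 1 in US at day 28, 1 in L at day 7 and none in the others. DESeq2 and limma called 0. Of the 16903 genes, 2527 and 1824 had such a p for US at days 7 and 28. The numbers were 1654 and 3566 for S, and 563 and 2107 for L.

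Between days within a material the class II chains did differ. In S, H2-Aa averaged 408.1 ± 145.7 CPM at day 1, 697.3 ± 95.1 CPM at day 7 and 774.4 ± 44.8 CPM at day 28 (SD, n = 3). S day 1 replicates 2 and 3 were the lowest of these 9 libraries. Against day 1, all 4 chains rose in S at day 7, by a log2 of 0.77 ± 0.24 for H2-Aa, 1.15 ± 0.31 for H2-Ab1, 1.04 ± 0.28 for H2-Eb1 and 0.77 ± 0.26 for Cd74. Their edgeR adjusted p was 0.0128, 0.00440, 0.00452 and 0.0186, and in each gene the day 7 libraries were all above the day 1 libraries, as for 27.4% of all genes. In that comparison 41.4% of all genes were called, 19.7% higher, so a call was common there. Only H2-Ab1 and H2-Eb1 were called without S day 1 replicate 2, without S day 1 replicate 3 or without S day 7 replicate 1 (2 genes each).

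Against day 1, the same 4 chains rose in S at day 28, by a log2 of 0.92 ± 0.24 for H2-Aa, 1.102 ± 0.307 for H2-Ab1, 1.03 ± 0.28 for H2-Eb1 and 0.86 ± 0.26 for Cd74. The edgeR adjusted p ran from 0.0248 to 0.0380, with 9.40% of all genes called, 4.24% higher. In each chain the day 28 libraries were all above the day 1 libraries, beside 19.2% of all genes. The count fell to 0 without S day 1 replicate 2, S day 1 replicate 3, S day 28 replicate 1 or S day 28 replicate 2. In both S comparisons the other 6 genes were not called, and their log2 differences ran from -0.12 to 0.24 at day 7 and from 0.27 to 0.38 at day 28. The clock list moved in the same comparison, with sums of 1085 to 1497 CPM at day 1, 628 to 755 CPM at day 7 and 557 to 683 CPM at day 28 in S. Its part in the difference was not tested.

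In US, Clec9a rose at day 7 against day 1 by a log2 of 1.19 ± 0.26 (adjusted p = 0.00996, edgeR), with 8.30, 7.98 and 6.64 CPM at day 7, against 1.88, 4.55 and 3.67 CPM at day 1. It was the 1 gene of the 10 called, beside 7.18% of all genes (3.05% higher), and H2-Aa, H2-Eb1 and Flt3 had adjusted p of 0.0518, 0.0598 and 0.0617. Without US day 1 replicate 1 the count was 0, and without US day 1 replicate 2 it was 6. For these and the other fits without 1 library, the share of all genes called is not given here. At day 28 against day 1, H2-Aa rose by 0.91 ± 0.24, H2-Eb1 by 1.05 ± 0.28 and Clec9a by 1.01 ± 0.26 (adjusted p = 0.0478, 0.0457 and 0.0446, edgeR). These were 3 of the 10 genes, beside 1.75% of all genes called (0.716% higher). The clock sums in US were 761 to 1180 CPM at day 1, 1143 to 1673 CPM at day 7 and 490 to 599 CPM at day 28, and their part in these differences was not tested. At day 28 the count was 0 without US day 1 replicate 1, US day 1 replicate 3, US day 28 replicate 1 or US day 28 replicate 3, 7 without US day 1 replicate 2, and 0 by limma on TPM.

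In L no gene of the 10 was called at day 7 or 28 against day 1, beside 11.2% and 1.12% of all genes. At an unadjusted p under 0.05 there were 2 and 8, beside 5323 and 3080 of the 16903 genes tested. DESeq2 called 0 at both days and limma 0. Without L day 1 replicate 3, whose chains were the highest of the day 1 libraries, 5 genes were called in each. The share of all genes called without that library is not given here, so the 5 cannot be set against a background. In D, the carrier group, no gene was called at day 7 or 28 against day 1, beside 0.00% and 0.0769% of all genes. In each, 1 gene of the 10 had an unadjusted p under 0.05, beside 4085 and 912 of the 16903 genes tested. DESeq2 and limma called 0. All 4 chains had positive differences in D too, from 0.28 to 0.52 at day 7 and from 0.17 to 0.29 at day 28. Comparing days 28 and 7, none of the 10 genes was called in any of the 4 materials by edgeR, DESeq2 or limma, beside 0.426%, 0.887%, 0.00% and 15.6% of all genes in S, US, L and D. At an unadjusted p under 0.05 there were 0, 1, 1 and 2 of the 10, beside 2830, 2236, 1277 and 5892 of the 16903 genes tested.

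**Figure D4:**
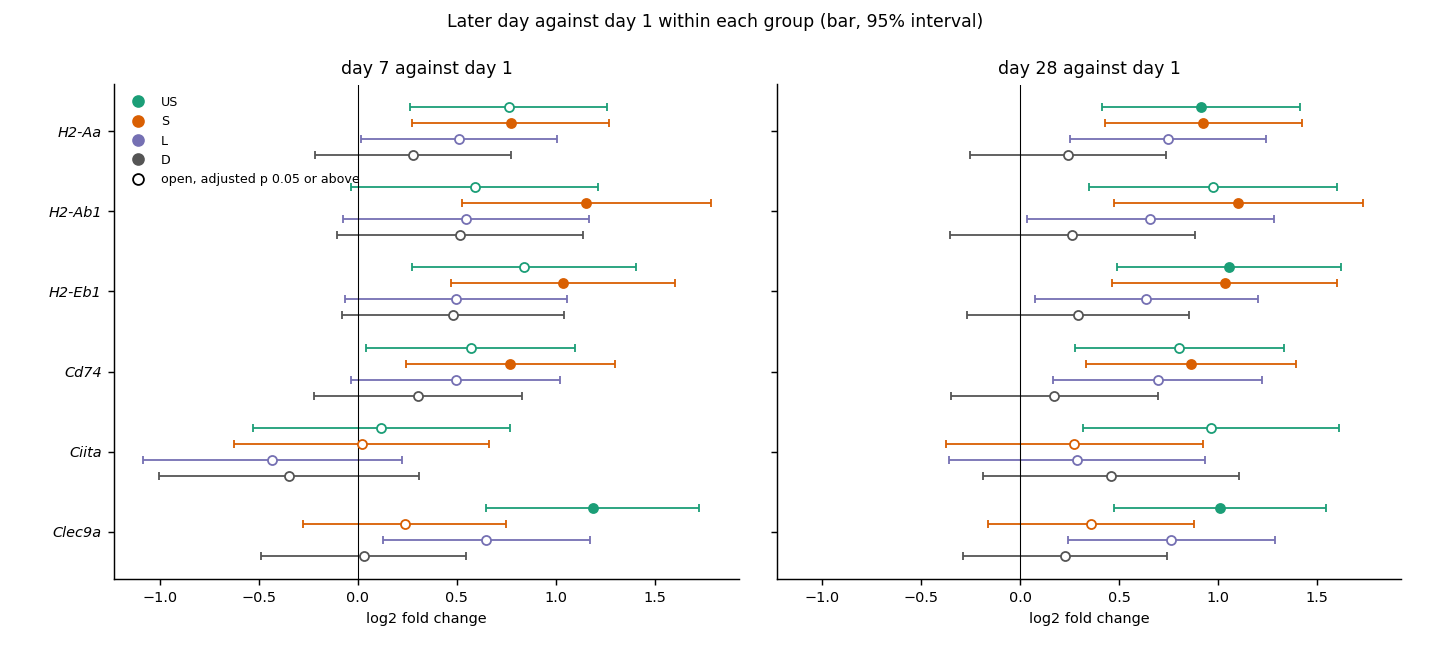
Log2 fold change of day 7 (left) and day 28 (right) against day 1 (horizontal axes) for the 4 class II chains, Ciita and Clec9a (vertical axis) within US, S, L and D. Bars are 95% intervals, and filled points have an adjusted p under 0.05. Filled points are the 4 chains in S at both days, Clec9a in US at both days, and H2-Aa and H2-Eb1 in US at day 28.

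A joint test for any difference among the 12 groups called 5 of the 10 genes: H2-Aa, H2-Ab1, H2-Eb1, Cd74 and Clec9a, with edgeR adjusted p from 0.00845 to 0.0288. It called 43.5% of all genes, so a share of 5 in 10 is near the background. Ciita had 0.0502. The count was 3 without S day 1 replicate 2 or S day 1 replicate 3. It was 9 without S day 1 replicate 1 and 8 without S day 7 replicate 1. The share of all genes called in these fits is not given here.

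Of the 9 other genes of class II loading and peptide processing, none was called against D at day 1 or day 7 in any size, and 2 rose in L at day 28. The peptide exchange factor subunit H2-DMa had 28.49, 61.86 and 39.09 CPM in US, 59.50, 32.44 and 26.85 CPM in S, and 41.46, 31.65 and 82.69 CPM in L, against 59.86, 57.81 and 59.54 CPM in D at day 1. The same 6 libraries were low as for the chains. At day 28 all 9 differences were positive in S and in L, with medians of 0.43 and 0.51 beside 0.00 and 0.00 over all genes tested. The lysosomal protease gene Ctss, which trims the invariant chain, had 658.4, 383.6 and 738.8 CPM in L, against 290.2, 341.5 and 325.3 CPM in D. Its log2 difference was 0.90 ± 0.20 (adjusted p = 0.0108, edgeR). Lgmn, another protease of that pathway, had 248.0, 190.6 and 252.5 CPM in L, against 149.1, 168.8 and 168.1 CPM in D. Its log2 difference was 0.51 ± 0.12 (adjusted p = 0.0199, edgeR). Both were high in L replicates 1 and 3, and neither call held without L day 28 replicate 1 (0.83 and 0.47), without L day 28 replicate 3 (0.72 and 0.45) or without D day 28 replicate 1 (0.85 and 0.47). Both proteases are also made by macrophages. The 10 interstitial macrophage and monocyte markers summed to 743.3 to 844.7 CPM in US, 595.8 to 779.0 CPM in S and 749.1 to 929.4 CPM in L, against 554.3 to 816.2 CPM in D at day 28. The 10 alveolar macrophage markers summed to 2034 to 2287 CPM in US, 2173 to 2528 CPM in S and 1347 to 1905 CPM in L, against 1585 to 1645 CPM in D at day 28. The alveolar macrophage sums of US and S thus lay wholly above D, and none of the markers of either list was called. The part of macrophages in the day 28 levels of the loading genes and of the chains was not tested.

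Among 10 tested genes of class II transcription and turnover, such as the RFX and NF-Y subunits, none was called in any size against D, and the medians of the 9 comparisons lay between -0.15 and 0.08. The 7 tested co-stimulation genes gave no call against D either, with medians of -0.09 to 0.20. Of the 12 further type 1 dendritic cell genes and the 12 genes of mature dendritic cells, none was called against D. For type 2 dendritic cells, 10 genes were tested. Itgax, the CD11c chain, rose in L at day 28 by a log2 of 0.99 ± 0.18 (adjusted p = 0.00173, edgeR), with 170.6, 98.15 and 204.5 CPM in L, against 63.57, 87.29 and 86.83 CPM in D. It is also carried by alveolar macrophages. Sirpa rose in L by 0.48 ± 0.12 (adjusted p = 0.0318, edgeR), a call lost without L day 28 replicate 1 (0.42), L day 28 replicate 3 (0.37), D day 28 replicate 1 (0.41) or D day 28 replicate 2 (0.51). The Sirpa call was also lost with only the L and D libraries fitted (0.50, adjusted p = 0.0882) and by limma on TPM (0.16, adjusted p = 0.928), and its L and D libraries overlapped. The transcription factor gene Klf4, also active in endothelium and epithelium, fell in L by 0.97 ± 0.23 and in S by 1.26 ± 0.23 (adjusted p = 0.0231 and 0.0103, edgeR). It had 103.3, 105.8 and 86.37 CPM in L and 109.4, 72.85 and 59.00 CPM in S, against 242.6, 169.5 and 165.5 CPM in D. Neither Klf4 call held without D day 28 replicate 1 (-0.75 in L, -1.05 in S). In L it was also lost without L day 28 replicate 1 (-0.99) or L day 28 replicate 3 (-0.87), and in S without S day 28 replicate 2 (-1.19), without S day 28 replicate 3 (-1.07) or with only the S and D libraries fitted (-1.26).

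Among 12 genes that grow or recruit dendritic cells, Csf2ra, a chain of the GM-CSF receptor, rose in L at day 28 by 0.79 ± 0.15 (adjusted p = 0.00285, edgeR). It had 25.85, 21.28 and 26.16 CPM in L, against 12.68, 14.76 and 15.09 CPM in D, and was called in all 12 alternatives. Ccl20, a chemokine for Ccr6-bearing cells, rose in S at day 7 by 3.88 ± 0.81 (adjusted p = 0.0248, edgeR). It had 1.85, 6.88 and 7.24 CPM in S, against 0.58, 0.22 and 0.30 CPM in D. That call was lost without S day 7 replicate 2 (3.64), S day 7 replicate 3 (3.63), or D day 7 replicate 1, 2 or 3 (4.35, 3.63 and 3.75), and by limma on TPM (2.69). Of 12 plasmacytoid dendritic cell genes, Cox6a2 fell in US at day 7 by 1.18 ± 0.30 (adjusted p = 0.0408, edgeR). It had 3.10, 4.88 and 4.35 CPM in US, against 11.44, 8.27 and 8.20 CPM in D. The call was lost without US day 7 replicate 1 (-1.01) or 3 (-1.23), and without D day 7 replicate 1 (-1.01) or 2 (-1.25). It was also lost with only the US and D libraries fitted (-1.185) and by limma on TPM (-0.98).

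Among markers of other cells that carry or meet class II, B cell and T cell sums lay under every D library in the same low libraries at day 1. For B cells, US replicate 3 and L replicates 1 and 2 were only just under the lowest D library. For T cells, S replicate 1, not one of these low libraries, was also just under the lowest D library. The 11 B cell markers summed to 133.6, 372.7 and 315.1 CPM in US, 338.9, 194.2 and 225.9 CPM in S, and 317.0, 318.1 and 465.5 CPM in L, against 330.2, 422.0 and 355.6 CPM in D. The 10 T cell markers summed to 33.88, 99.17 and 77.76 CPM in US, 96.04, 49.19 and 50.53 CPM in S, and 72.54, 52.42 and 127.3 CPM in L, against 97.06 CPM or more in each D library. In both lists US replicate 1 and S replicates 2 and 3 were the 3 lowest of the 12 libraries of day 1, and no marker was called against D at day 1. All 11 B cell differences were negative in US and in S, with medians of -0.42 and -0.53, and all 10 T cell differences were negative in US, S and L, with medians of -0.51, -0.60 and -0.26. The medians over all genes tested were 0.01, -0.02 and 0.01. The 12 plasmacytoid dendritic cell markers summed to 320.1 to 442.2 CPM in US, 313.6 to 419.0 CPM in S and 364.7 to 475.6 CPM in L, against 403.0 to 447.6 CPM in D. The 10 alveolar type 2 markers, on another class II-bearing cell, summed to 28570.0 to 34600.0 CPM in US, 29600.0 to 32630.0 CPM in S and 32000.0 to 39090.0 CPM in L, against 32010.0 to 35580.0 CPM in D. The 10 neutrophil markers summed to 718.5 CPM in US replicate 1, against 108.3 to 415.2 CPM in the other 35 libraries. Of them, Camp was at 0 in 1 or more of the 36 libraries. No B cell, T cell, plasmacytoid or alveolar type 2 marker was at 0 in any library. The part of these cells in the class II levels was not tested. At day 28, Cd37, a B cell tetraspanin, rose in L by 0.83 ± 0.22 (adjusted p = 0.0393, edgeR), and all 11 B cell differences were positive in L with a median of 0.65. That call was lost without any 1 of the 6 libraries compared, with values of 0.77 to 0.89, and with a replicate block (0.825) or by limma on TPM (0.64).

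**Figure D5:**
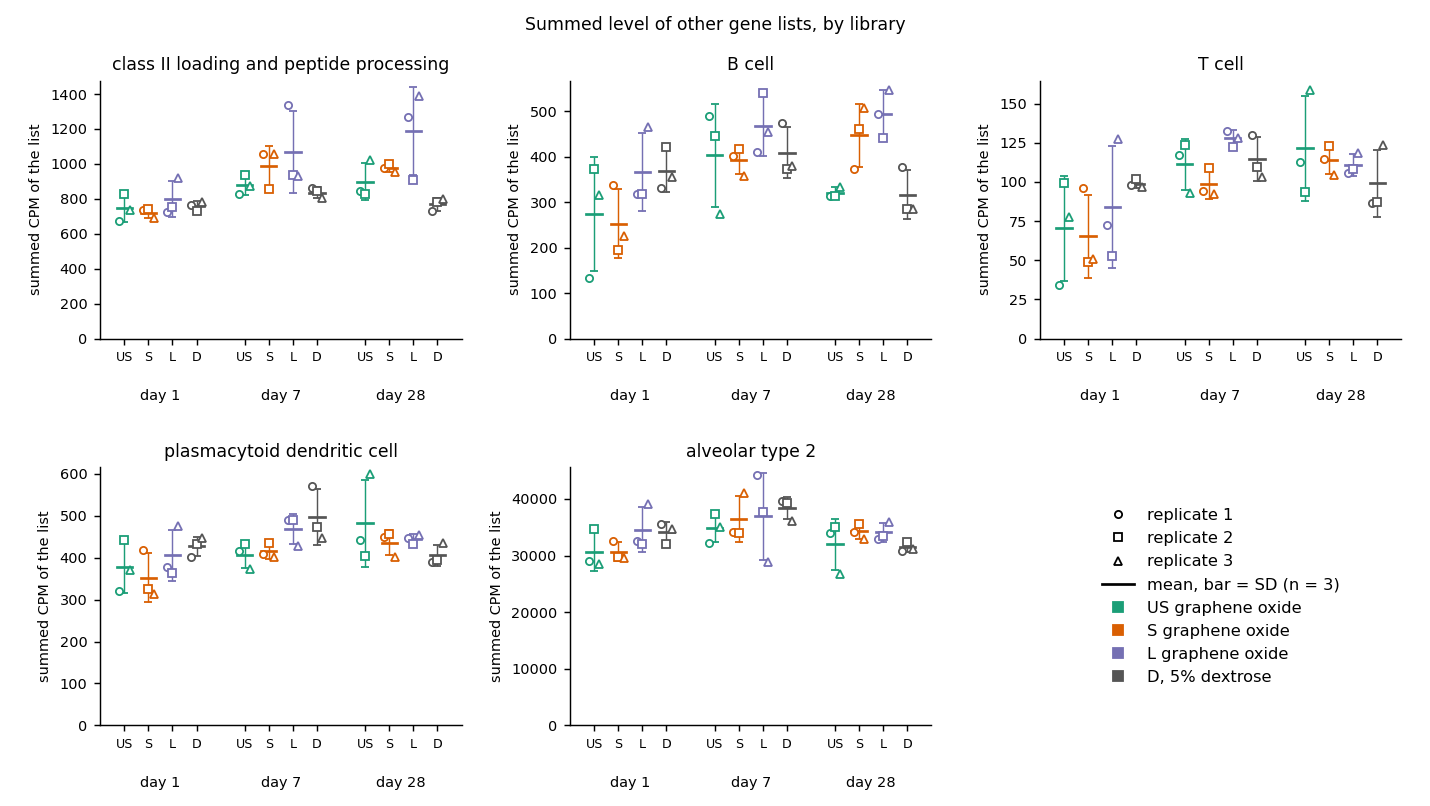
Summed TMM-scaled CPM (vertical axes) of class II loading, B cell, T cell, plasmacytoid dendritic cell and alveolar type 2 genes in US, S, L and D at days 1, 7 and 28 (horizontal axis), drawn as for the class II genes. At day 1 the T cell sum is 33.88 CPM in US replicate 1 and 49.19 and 50.53 CPM in S replicates 2 and 3, under the D libraries at 97.06 CPM or more.

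Across the 36 libraries, which share library preparation and the group structure, the 4 chains varied almost as 1 gene. Pearson's r of log2 CPM between pairs of them ran from 0.962 (H2-Aa and H2-Ab1) to 0.987 (H2-Ab1 and H2-Eb1). Ciita followed them loosely, with r from 0.321 to 0.431. Xcr1 and Clec9a had r = 0.736 with each other, and from 0.632 to 0.762 with the chains. Cd209a stood apart, with r from 0.316 to 0.479 with the other 9 genes. By the same measure, the genes most like the mean of the 4 chains were H2-DMa (r = 0.979), H2-DMb1 (0.958), Lsp1 (0.934), Rnase6 (0.929) and Nkg7 (0.928). Those most like the mean of Xcr1 and Clec9a were Hepacam2 (0.859), Mndal (0.838), Kmo (0.829), Ifi203 (0.828) and Klra1 (0.821). With the 12 group means removed, r between the chains ran from 0.949 to 0.984. Against the chains it then ran from 0.387 to 0.546 for Clec9a, 0.618 to 0.745 for Xcr1 and 0.390 to 0.533 for Ciita. Between Xcr1 and Clec9a it was 0.706, and for Cd209a it ran from 0.231 to 0.587 with the other 9 genes. Each value is a description over 36 libraries and was not tested.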

How the data were processed

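Lung RNA of 36 libraries in 12 groups of 3 was analysed. The count table was deposited by the authors as whole read counts per Ensembl gene, as its values show. TPM, FPKM and coverage signal per gene were deposited by the authors too, per the file headers. Of these only TPM was used, for levels between genes and as an alternative. STAR 2.5.1b, featureCounts 1.5.1, StringTie 1.3.3, CASAVA and bcl2fastq 2.19.1.403 are named, without roles, in the submitters' processing notes. Positions are those of GRCm38. Libraries were made with a stranded kit, per the labels' protocols, and the strand setting of the counting is not given in the sources used here.

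After filterByExpr and TMM scaling (factors between 0.932 and 1.06), counts of all 36 libraries were fitted in edgeR 4.0.16 (R 4.3.3) with 1 mean per group. Tests were two-sided quasi-likelihood F tests, and a gene was called at a Benjamini-Hochberg adjusted p under 0.05 over the 16903 genes. Intervals are 95% intervals from the fit, and fold changes are log2 ± SE. No pair of libraries in a group agreed within sampling noise (lowest chi-square per degree of freedom 6.16). Alternatives were RLE scaling, no filter, a replicate block, only the 2 groups compared, DESeq2 1.42.0, limma 3.58.1 on log2(TPM + 1), restricted to genes averaging 1 TPM or more, and fits without 1 library at a time.

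The 10 genes and the 19 lists of other genes (192 names, 184 tested) were chosen with earlier results of these data known. Named were all 10 genes, up to 3 called genes of each list in comparisons with D by smallest p, and the 5 genes most correlated (log2 CPM, prior count 1) with the mean of the 4 chains or of Xcr1 and Clec9a. Promoter sequences are from RefSeq, build GRCm38.p6.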

Additional observations from a re-analysis of the deposited data

Results flagged for a closer look

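In 15 comparisons, 9 between sizes on the same day and 6 of the effect of a size at a later day with that at day 1, edgeR's fit across all genes called none of the 10 genes described. It called 3 genes of the lists other than the clock list. Of the 14 clock genes, 11 were called in 1 or more of the 15, with 32 calls in 6 comparisons. Zbtb46, a transcription factor gene of conventional dendritic cells that endothelium also expresses, had an S effect at day 28 that differed from that at day 1 by -0.90 ± 0.18 on the log2 scale (adjusted p = 0.0275). It had 43.85, 37.74 and 38.04 CPM in S day 28, against 54.06, 52.71 and 53.53 CPM in D day 28, and 44.14, 53.67 and 66.45 CPM in S day 1, against 40.55, 35.82 and 41.38 CPM in D day 1. The call held in 6 of 17 alternatives, with values from -1.03 to -0.75. It was lost without S day 1 replicate 2 or 3, S day 28 replicate 2 or 3, or any 1 of the 6 D libraries, and by limma on TPM (-0.86).

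Itgax, the CD11c chain, was higher in L than in US at day 28 by a log2 of 0.88 ± 0.18 (adjusted p = 0.0120, edgeR), with 170.6, 98.15 and 204.5 CPM in L, against 84.84, 85.24 and 87.57 CPM in US. The call was lost without L day 28 replicate 1 (0.84), L day 28 replicate 3 (0.66), US day 28 replicate 1 (0.89) or US day 28 replicate 2 (0.89), and by limma on TPM (0.77). Cxcl9, an interferon gamma-induced chemokine, differed between L and US at day 28 by -4.09 ± 0.91 (adjusted p = 0.0261, edgeR). It had 1.14, 1.11 and 1.66 CPM in L, against 1.49, 1.54 and 63.63 CPM in US, so 1 library, US day 28 replicate 3, carries the difference, and without it the value was -0.22 (adjusted p = 0.933). The call was also lost without any 1 of the 3 L libraries (-4.28 to -3.98), with a replicate block (-3.69) and by limma on TPM (-1.56).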

How the results depend on the processing

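The number of the 10 genes called was recomputed in 40 comparisons under 533 alternatives, and in 502 it was equal to or within 1.5 times the reported one. RLE scaling moved none. Without the filter on low counts the count was 1 in US against D at day 1 and 3 in US at day 7 against day 1. DESeq2 gave 1 in US against D at day 1, 4 and 5 in US at day 7 and day 28 against day 1, and 9 in the joint test. With only the 2 groups fitted it was 1 in L against D at day 28. Limma on TPM gave 0 in US at day 7 and at day 28 against day 1. With 1 library left out the count ran from 0 to 1 in US against D at day 1, from 0 to 6 and 0 to 7 in US at day 7 and day 28 against day 1, from 2 to 4 and 0 to 5 in S, from 0 to 5 at both days in L, and from 3 to 9 in the joint test. The share of all genes called in these fits is not given here, so the higher counts cannot be set against a background. With 1 library left out, 2 fold changes reversed. Clec9a in S against D at day 1 ran from -0.462 to 0.021, positive without D day 1 replicate 2, and Ciita in US against D at day 28 from -0.43 to 0.62, negative without US day 28 replicate 3. The cause was not tested. Of 504 recomputed values of 43 fold changes, 452 kept their direction and side of the threshold, 46 lost the call and 4 gained it.

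The replicate numbers did not pair the samples: deviations of same-numbered libraries from their group means correlated between -0.457 and 0.407 (median -0.001, 198 pairs), and with a replicate block the count in US at day 28 against day 1 was 0, with no other count moved by over 1.5 times. Of the 5 genes most like the chains, and of those most like Xcr1 and Clec9a, 3 each remained when group means were removed. Over all genes, DESeq2 and the fit without the filter, each on 29445 genes, called 343 and 137 in US against D at day 1, where edgeR called 15. In S at day 1 edgeR called 8, DESeq2 185 and the fit of only those 2 groups 1177. In L at day 28 those numbers were 363, 514 and 805. Among list genes, the call of Ctss, Lgmn and Klf4 in L at day 28 held in 9 of 12 alternatives each, that of Itgax and Csf2ra in 12, Klf4 in S in 8, Sirpa, Ccl20 and Cox6a2 in 6, Cd37 in 4 and Adig in 3 of 11, where DESeq2 gave no adjusted p. With 3 libraries a group, 95% intervals of the 10 genes against D were about 1 log2 unit wide, and small changes were not detectable. Larger ones could also miss the call after adjustment over the 16903 genes. Examples are Clec9a at -1.05 in US at day 1 and Cd209a at -0.86 in L at day 28.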
